A study of Rattus norvegicus with 12 samples.

Results

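Toll-like receptors were measured in the colon of rats after neonatal maternal separation (NMS) and treatment with the probiotic mixture VSL#3. Members were all non-control probes that the array files name Tlr1 to Tlr10. These were 10 of 30367 probes on the array, and they measured 9 of the 10 genes among the 26514 gene names of the files, since no probe carried the name Tlr1. All animals were male Wistar rats, whose colon was collected on postnatal day 60 after colorectal distension (CRD), the inflation of a balloon in the rectum that serves as a test of visceral pain. Group C (rats C1 to C4) was kept with the dam (normally handled) and received placebo, 100 ul of saline by gavage each day from day 3 to day 60. Group M (M5 to M8) was separated from the mothers for 180 min a day from day 2 to day 14 and received the same placebo over the same days. Group D (D9 to D12) underwent the same separation and received VSL#3 in 100 ul of saline each day from day 3 to day 60, and the labels and the methods of the study give different doses. The same piece of colon, beginning near the anus, was taken from each rat, so the signals are those of mixed tissue, in which fewer cells of a type and less RNA per cell cannot be told apart. Rats without distension were not analysed here.

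Toll-like receptors are membrane receptors of innate immunity that recognise conserved molecules of microbes. Tlr1, Tlr2, Tlr4, Tlr5 and Tlr6 lie at the cell surface and recognise bacterial lipoproteins (Tlr2 together with Tlr1 or Tlr6), lipopolysaccharide (Tlr4) and flagellin (Tlr5), whereas Tlr3, Tlr7, Tlr8 and Tlr9 lie in endosomes and recognise nucleic acids. They signal through the adaptor Myd88, apart from Tlr3, which signals through Ticam1, and Tlr4, which uses both, and they activate NF-kB and interferon regulatory factors. In the colon they are carried by epithelial cells and by immune cells of the mucosa, which face the bacteria of the lumen.

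Each rat was measured on an array of its own with 1 colour (Cy3). A signal is given here as log2 of the background-subtracted brightness of a probe minus log2 of the 75th percentile of its array, so that a difference of 1 is a 2-fold change. This percentile ranged from 1434 to 1953 over the 12 arrays, 0 spots were saturated, and the share of spots well above background was 75.5% to 77.5%. The methods of the study name 11 arrays, with D9 to D11 for Group D, and the comparisons were therefore made on these 11 arrays, with values on all 12 arrays beside those that D12 moves most. Groups C and M lay on the same slide, each in an array row of its own, and all arrays of Group D lay on another slide in another scan. For every difference that involves Group D, slide and group cannot be told apart. For every difference between Groups M and C, array row and group cannot be told apart. All 12 markers of colon epithelium and all 8 of smooth muscle, chosen to check the label of the tissue, were well above background on every array.

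The probes of Tlr2, Tlr3, Tlr4, Tlr5 and Tlr6 were well above background on all 12 arrays. The probe of Tlr7 was so on 11 arrays (not on D9), that of Tlr10 on 9 (not on C1, M6 and D9), that of Tlr8 on 7 (C1 to C4 and M5 to M7) and that of Tlr9 on 0. Tlr3 had 2 probes and each other gene 1, every probe had 60 bases, and every probe had 2 spots apart from that of Tlr8, with 1 spot. The accession that the files give for each probe named the same gene in RefSeq for all 10 probes. Per the files, in build rn4, the probes lay at chr2:175608160-175608217 for Tlr2 (a stretch of 58 bases, minus strand), chr5:83577410-83577469 for Tlr4, chr13:99028987-99029046 for Tlr5, chr14:46100547-46100606 for Tlr6, chr14:46141778-46141837 for Tlr10 and chrX:47356167-47356226 for Tlr7. The probes of Tlr3 lay at chr16:50126271-50126330, the brighter one, and at chr16:50126045-50126104, and their starts were 226 bases apart. Those of Tlr8 and Tlr9 had no position in the files. The files do not say which exon or untranslated region a probe lies in. In the order of protein-coding genes in the GRCr8 assembly, Tlr6, Tlr1 and Tlr10 are neighbours on chromosome 14 and Tlr7 and Tlr8 on chromosome X. Levels of different probes are not compared, because the brightness of a probe also depends on its sequence.

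The probes of Tlr2 and Tlr6, whose proteins pair with each other, are shown because they share a run of 10 bases, here in capitals, and 27 identical bases over the best overlap of 42 without gaps. Of the 45 pairs of probes, the others shared at most 11 bases in a run (Tlr8 and Tlr9).
Tlr2 probe: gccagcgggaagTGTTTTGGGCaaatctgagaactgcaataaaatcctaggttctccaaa
Tlr6 probe: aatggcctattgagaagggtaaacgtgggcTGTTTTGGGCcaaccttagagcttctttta

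The probes of Tlr3 are shown because the results turn on whether they moved alike. They shared no run of 8 or more bases. Both are named for the same transcript and were read from the same RNA of each rat, so they are not independent. The counts of Toll-like receptor probes below include both.
Tlr3 brighter probe: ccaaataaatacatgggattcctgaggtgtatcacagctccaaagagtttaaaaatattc
Tlr3 other probe: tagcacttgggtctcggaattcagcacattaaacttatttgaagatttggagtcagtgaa

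In the comparison of Group M with Group C, which asks what NMS changed in the colon, Tlr3 was lower in every separated rat than in every control rat on both probes, and Tlr2 had a higher mean in the separated rats, of which M7 and M8 lay above every control rat. A probe is named as called where the 2 groups differed 2-fold or more and the p of limma, adjusted by Benjamini-Hochberg for every probe of the array, was 0.05 or less. By this rule 0 of 10 Toll-like receptor probes were called, against 0.165% of all probes, and with all 12 arrays in the fit also 0, against 0.0329%. Without adjustment 5 of 10 had a p of 0.05 or less, where 22.7% of all probes did. Of these 5, the probe of Tlr2 was higher in Group M and 4 were lower (both probes of Tlr3, Tlr4 and Tlr5), against 12.6% of all probes that were lower. With all 12 arrays in the fit these 4 passed and Tlr2 did not, against 18.5% of all probes in either direction. The methods of the study ask for 2-fold and an unadjusted p of 0.05 or less in an analysis of variance followed by Tukey's test, and 1 probe met this (the brighter probe of Tlr3), against 2.31% of all probes on 11 arrays and 1.56% on 12. For 2 probes, those of Tlr3, all rats of Group M lay below all rats of Group C, against 5.04% of all probes.

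In the comparison of Group D with Group M, which asks what VSL#3 changed in separated rats, Tlr2, Tlr6, Tlr7 and Tlr8 had lower means and Tlr4 a higher mean in Group D. On the 11 arrays 0 of 10 probes were called, against 0.128% of all probes, and on all 12 also 0, against 0.0132%. These 5 probes had an unadjusted p of 0.05 or less, where 21.6% of all probes did, 1 of them higher in Group D, against 11.3%, and 4 lower, against 10.3%. With rat D12 in the fit 2 passed, Tlr4 and Tlr8, against 12.2% of all probes. By the methods' criterion 0 passed, against 2.66%. For the probe of Tlr2 alone, D9 to D11 lay below all rats of Group M, against 7.38% of all probes. With D12 the groups overlapped for every one of the 10 probes, where 5.00% of all probes separated them in either direction.

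In the comparison of Group D with Group C, which asks whether treated separated rats differed from healthy rats, both probes of Tlr3 and that of Tlr8 were lower in every rat of Group D, and the other receptors overlapped. On 11 arrays as on 12, 0 of 10 probes were called, against 0.00659% of all probes. An unadjusted p of 0.05 or less was found for 3 of 10, where 5.97% of all probes had one, and all 3 were lower in Group D, against 2.98%. With all 12 arrays in the fit 4 passed, these 3 and Tlr10, which was higher in Group D, against 6.85% of all probes. By the methods' criterion 0 passed, against 0.369%. These 3 probes lay lower in Group D without overlap, against 4.02% of all probes on 11 arrays and 2.52% on 12. Group M enters the comparison with Group C and the comparison with Group D, so opposite signs in these comparisons are not independent of each other.

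**Figure D1:**
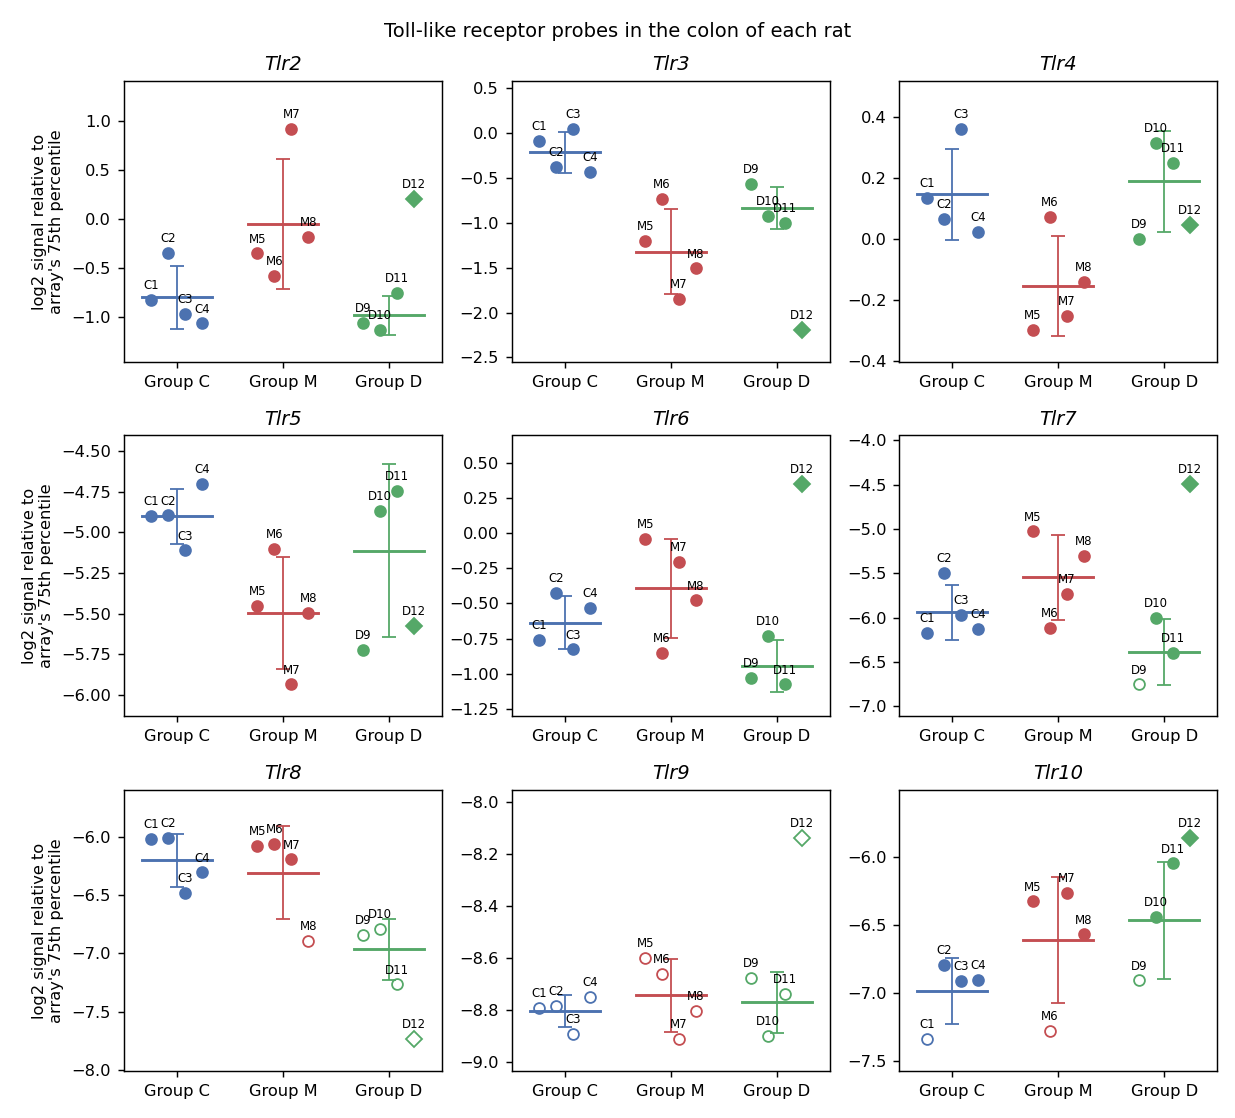
Log2 signal relative to the 75th percentile of the array (vertical axis) of the brightest probe of 9 Toll-like receptor genes in every rat of Groups C, M and D; bars are the mean and SD of 4, 4 and 3 rats, without D12, which is drawn as a diamond, and open symbols are values not well above background. Tlr3 lay between -0.43 and 0.04 in Group C and between -1.85 and -0.73 in Group M, and D12 was the highest of all rats for Tlr6, Tlr7 and Tlr10.

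Among the receptors of bacterial lipoproteins, Tlr2 had log2 signals of -0.82, -0.35, -0.97 and -1.07 in rats C1 to C4. In Group M it had -0.35, -0.58, 0.92 and -0.18 in rats M5 to M8, and in Group D -1.06, -1.14, -0.76 and 0.20 in rats D9 to D12. M7 was the highest of all rats, M5 and M6 fell within the range of Group C, and D12 lay above every rat of Group C while D9 to D11 lay below every rat of Group M. The mean was -0.05 ± 0.67 (SD, n = 4) in Group M and -0.80 ± 0.32 (SD, n = 4) in Group C, a difference of 0.75 ± 0.30 (SE; adjusted p = 0.174 by limma). The difference of Group D from Group M was -0.94 ± 0.32 (SE) on the 11 arrays, with an adjusted p of 0.147, and -0.64 on all 12, with an adjusted p of 0.503. Without M6 it was -1.11, with an adjusted p of 0.0477, and the probe was called, as were 6.51% of all probes. The difference of Group D from Group C was -0.18 on the 11 arrays, within a 95% confidence interval of -0.90 to 0.54, and 0.11 on all 12.

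Tlr6, the partner of Tlr2 for lipoproteins, had log2 signals of -0.76, -0.43, -0.83 and -0.53 in rats C1 to C4. It had -0.04, -0.85, -0.20 and -0.48 in M5 to M8 and -1.03, -0.73, -1.07 and 0.35 in D9 to D12. All 3 groups overlapped, M6 was the lowest of Group M and D12 the highest of all rats. The difference of Group M from Group C was 0.24 ± 0.18 (SE; adjusted p = 0.453), smaller than the SD of 0.35 within Group M. Group D differed from Group M by -0.55 ± 0.19 (SE; adjusted p = 0.150) on the 11 arrays and by -0.23 (adjusted p = 0.788) on all 12, and from Group C by -0.31 (adjusted p = 0.923) and 0.02.

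Tlr10, a relative of Tlr1 and Tlr6 whose ligands are less well established, was dim, with log2 signals of -7.34 to -6.80 in Group C, -7.28 to -6.27 in Group M and -6.91 to -5.86 in Group D. The value of D12 was the highest of all rats and that of C1 the lowest, and the groups overlapped. The differences on the 11 arrays were 0.38 ± 0.25 (SE; adjusted p = 0.408) for Group M against Group C, 0.14 ± 0.27 (adjusted p = 0.804) for Group D against Group M and 0.52 ± 0.27 (adjusted p = 0.876) for Group D against Group C. With D12 in the fit the last 2 were 0.30 (adjusted p = 0.674) and 0.67 (adjusted p = 0.692).

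Tlr4, the receptor of lipopolysaccharide, had SDs within the groups of 0.15, 0.16 and 0.17 on the 11 arrays. It had log2 signals of 0.13, 0.06, 0.36 and 0.02 in C1 to C4, of -0.30, 0.07, -0.25 and -0.14 in M5 to M8 and of 0.00, 0.31, 0.25 and 0.05 in D9 to D12. M5, M7 and M8 lay below every rat of the other groups, and M6 lay among them. The mean of Group M was lower than that of Group C by 0.30 on the log2 scale, a difference of -0.30 ± 0.12 (SE; adjusted p = 0.179), or 1.23-fold. Group D differed from Group M by 0.34 ± 0.13 (SE; adjusted p = 0.171) and from Group C by 0.04, with a 95% confidence interval of -0.25 to 0.33. For this probe the value on all 12 arrays was near that on 11, with a difference of 0.31 between Groups D and M and of 0.01 between Groups D and C.

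Tlr5, the receptor of flagellin, had log2 signals of -4.90, -4.90, -5.11 and -4.70 in C1 to C4 and of -5.45, -5.10, -5.93 and -5.50 in M5 to M8. In Group D, D9 (-5.72) and D12 (-5.58) lay in the range of Group M, and D10 (-4.87) and D11 (-4.75) in that of Group C. Groups M and C overlapped by M6 and C3 alone, and their means differed by -0.59 ± 0.23 (SE; adjusted p = 0.170). With a normexp background correction, which pulls dim signals together, this difference was -0.24. Group D differed from Group M by 0.38 ± 0.25 (SE; adjusted p = 0.407) and from Group C by -0.21, with a 95% confidence interval of -0.77 to 0.35. On all 12 arrays these differences were 0.27 and -0.33.

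Among the receptors of nucleic acids, Tlr3, which recognises double-stranded RNA, had the largest difference between Groups M and C of the 8 genes compared. The brighter probe had log2 signals of -0.09, -0.37, 0.04 and -0.43 in C1 to C4, of -1.20, -0.73, -1.85 and -1.51 in M5 to M8 and of -0.57, -0.92, -1.003 and -2.19 in D9 to D12. The other probe had -0.30, -0.62, -0.09 and -0.54 in C1 to C4, -0.99, -0.85, -1.80 and -1.58 in M5 to M8 and -0.69, -0.99, -1.09 and -2.05 in D9 to D12. On both probes every rat of Groups M and D lay below every rat of Group C, D12 was the lowest of all rats, and Groups D and M overlapped. On the brighter probe Group M was 2.16-fold lower than Group C (-1.11 ± 0.23, SE), with an adjusted p of 0.0867 by limma and a Tukey p of 0.00447. On the other probe the difference was -0.92 ± 0.22 (SE; adjusted p = 0.0976). The adjusted p of the brighter probe ranged from 0.00326 to 0.245 over the alternatives, and it was called with a normexp correction (-1.05, adjusted p = 0.0481), with weights for the quality of the arrays (-1.28, adjusted p = 0.00326) and without M6 (-1.31, adjusted p = 0.00904). With all 12 arrays in the fit and M6 left out, its adjusted p was 0.0647 and it was not called.

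The difference of Group D from Group C in Tlr3 was -0.62 ± 0.24 (SE; adjusted p = 0.799) on the brighter probe and -0.54 ± 0.24 (adjusted p = 0.83) on the other, and with D12 in the fit -0.96 (adjusted p = 0.616) and -0.82 (adjusted p = 0.646). The difference of Group D from Group M was 0.49 ± 0.24 (SE; adjusted p = 0.271) and 0.38 ± 0.24 (adjusted p = 0.387) on the 11 arrays, and 0.15 and 0.10 on all 12. The order of the means was thus Group C, Group D and Group M on both probes, where Group D and Group M did not differ beyond their spread.

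Tlr7, which recognises single-stranded RNA, was dim, with log2 signals of -6.17, -5.50, -5.97 and -6.12 in C1 to C4, of -5.03, -6.11, -5.74 and -5.30 in M5 to M8 and of -6.75, -6.00, -6.40 and -4.49 in D9 to D12. M6 and M7 lay within the range of Group C, and D12 was the highest of all rats. Group M differed from Group C by 0.40 ± 0.26 (SE; adjusted p = 0.391). Group D differed from Group M by -0.84 ± 0.28 (SE; adjusted p = 0.137) on the 11 arrays and by -0.37 (adjusted p = 0.758) on all 12. Without M6 the difference was -1.03 (adjusted p = 0.0302) and the probe was called, as it was with weights for the quality of the arrays (-1.04, adjusted p = 0.0114), and with a normexp correction the difference was -0.24. Of all probes, 6.51% were called without M6 and 6.94% with the weights, against 0.128% in the main fit. Against Group C, Group D differed by -0.44 on the 11 arrays and by 0.03 on all 12.

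Tlr8, a neighbour and close relative of Tlr7, was near background. It had log2 signals of -6.02, -6.01, -6.48 and -6.31 in C1 to C4 and of -6.08, -6.06, -6.20 and -6.89 in M5 to M8, where M8 was not well above background. In Group D no array was well above background, with values of -6.84, -6.79, -7.27 and -7.73, all below every rat of Group C. As measured, Group C was 1.69-fold brighter than Group D on the 11 arrays and 1.93-fold on all 12, with adjusted p of 0.656 and 0.467. Group M, with 3 of 4 arrays well above background, was 1.58-fold brighter than Group D on the 11 arrays (adjusted p = 0.143). With no array of Group D well above background, these folds are point estimates and not lower bounds. With the normexp correction the differences of Group D, -0.76 from Group C and -0.66 from Group M, became -0.17 and -0.01. Group M differed from Group C by -0.10, less than the SD of 0.23 in Group C. Tlr9, which recognises bacterial DNA, was well above background on 0 of 12 arrays, and no difference is given for it.

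**Figure D2:**
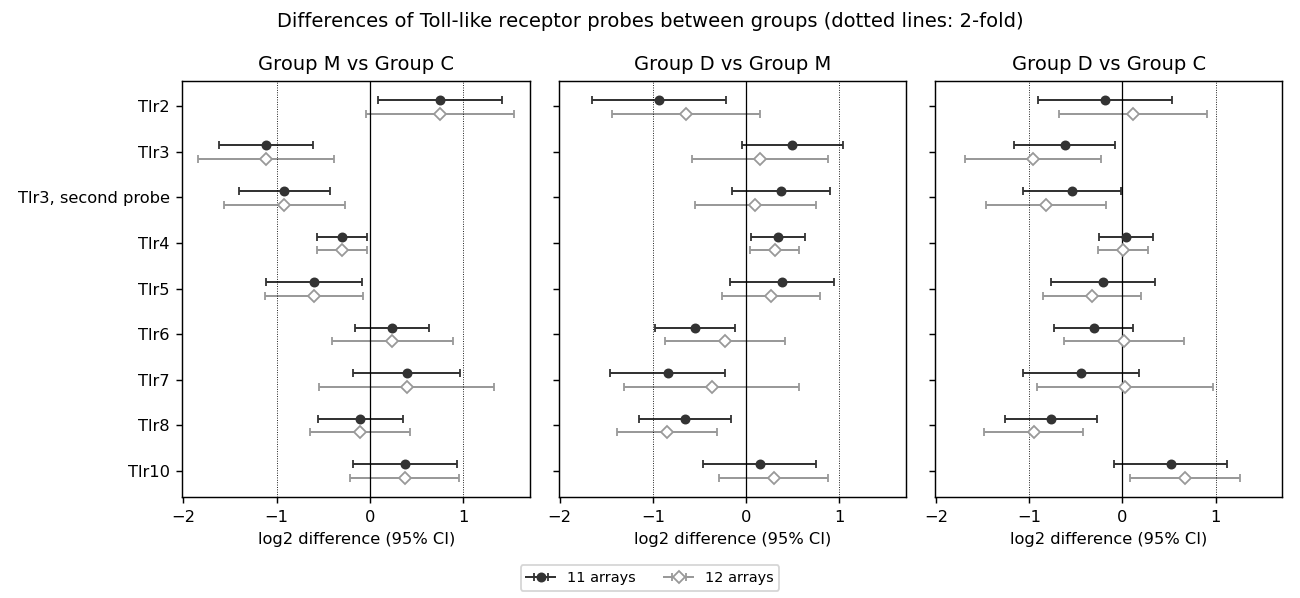
Log2 differences (horizontal axes) with 95% confidence intervals of limma for 9 Toll-like receptor probes in the 3 comparisons, on the 11 arrays without D12 (filled circles) and on all 12 (open diamonds); dotted lines mark a 2-fold change. For Group M against Group C on the 11 arrays the intervals of both probes of Tlr3, of Tlr4 (-0.57 to -0.03) and of Tlr5 (-1.11 to -0.08) lay below 0 and that of Tlr2 (0.09 to 1.42) above 0, and adding D12 moved Tlr2, Tlr6 and Tlr7 of Group D towards higher values.

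Within the groups, the same rats stood apart for several receptors. In Group M, M6 had the lowest signal for Tlr2, Tlr6, Tlr7 and Tlr10 and the highest for Tlr3, Tlr4, Tlr5 and Tlr8. In Group C, C2 had the highest signal for Tlr2, Tlr6, Tlr7, Tlr8 and Tlr10. In Group D, D12 had the highest signal for Tlr2, Tlr6, Tlr7 and Tlr10 and the lowest for Tlr3 and Tlr8.

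Marker genes of immune cells differed among the same rats. The mean log2 signal of 5 general leukocyte markers, relative to that of Group C, was 1.48 in C2 and -0.59 to -0.37 in the other rats of that group, -0.57 in M6 and 1.49 to 1.93 in M5, M7 and M8, and 2.46 in D12 and -0.86 to -0.31 in D9 to D11. The 8 B cell markers were at 2.67 in C2, at -1.19 in M6 and at 3.84 in D12, and the 8 T cell markers at 2.09, -1.15 and 3.01. The 8 neutrophil markers were highest in M7 (2.57), the rat with the highest Tlr2, and were at 0.09 in M6 and 1.03 in D12. The 12 macrophage and monocyte markers lay between -0.37 and 0.32 in all rats. Between the groups the sum over the leukocyte markers of the signal, as a ratio to the 75th percentile, ranged from 8.89 to 33.8 in Group C, from 9.25 to 48.2 in Group M and from 7.71 to 68.7 in Group D, and for the neutrophil markers from 0.169 to 0.457, from 0.199 to 3.76 and from 0.164 to 0.507. On the 11 arrays 0 leukocyte, 0 B cell, 0 T cell, 0 neutrophil and 0 macrophage markers were called in any comparison, where 0.165%, 0.128% and 0.00659% of all probes were called. In Group D against Group M all 5 leukocyte and 8 of 12 macrophage markers were lower with an unadjusted p of 0.05 or less. So were 4 of 8 neutrophil, 2 of 8 B cell, 1 of 8 T cell and 1 of 7 dendritic cell markers, and 10.3% of all probes. With D12 in the fit 4 macrophage, 2 neutrophil and 1 dendritic cell markers had such a p, against 12.2% of all probes in either direction. The counts of leukocyte, B cell and T cell markers were then 0. In Group M against Group C, 0 of 5 leukocyte, 0 of 8 B cell and 0 of 8 T cell markers had such a p, against 22.7% of all probes. Among the neutrophil markers 4 of 8 had one and among the macrophage markers 3 of 12, all higher in Group M. The median difference of Group M from Group C was 1.20 for the leukocyte markers, 1.74 for the neutrophil markers and 0.16 for the macrophage markers, against -0.01 over all probes. That of Group D from Group M on the 11 arrays was -1.82, -1.75 and -0.49, against 0.01 over all probes. All 5 leukocyte, all 8 T cell and 11 of 12 macrophage markers were well above background on all 12 arrays. Only 3 of 8 neutrophil, 4 of 8 B cell and 3 of 7 dendritic cell markers were so, and the values of these lists rest partly on signals near background. Siglech, of plasmacytoid dendritic cells, was well above background on 0 arrays. The part of these cells in the differences of the receptors was not tested.

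**Figure D3:**
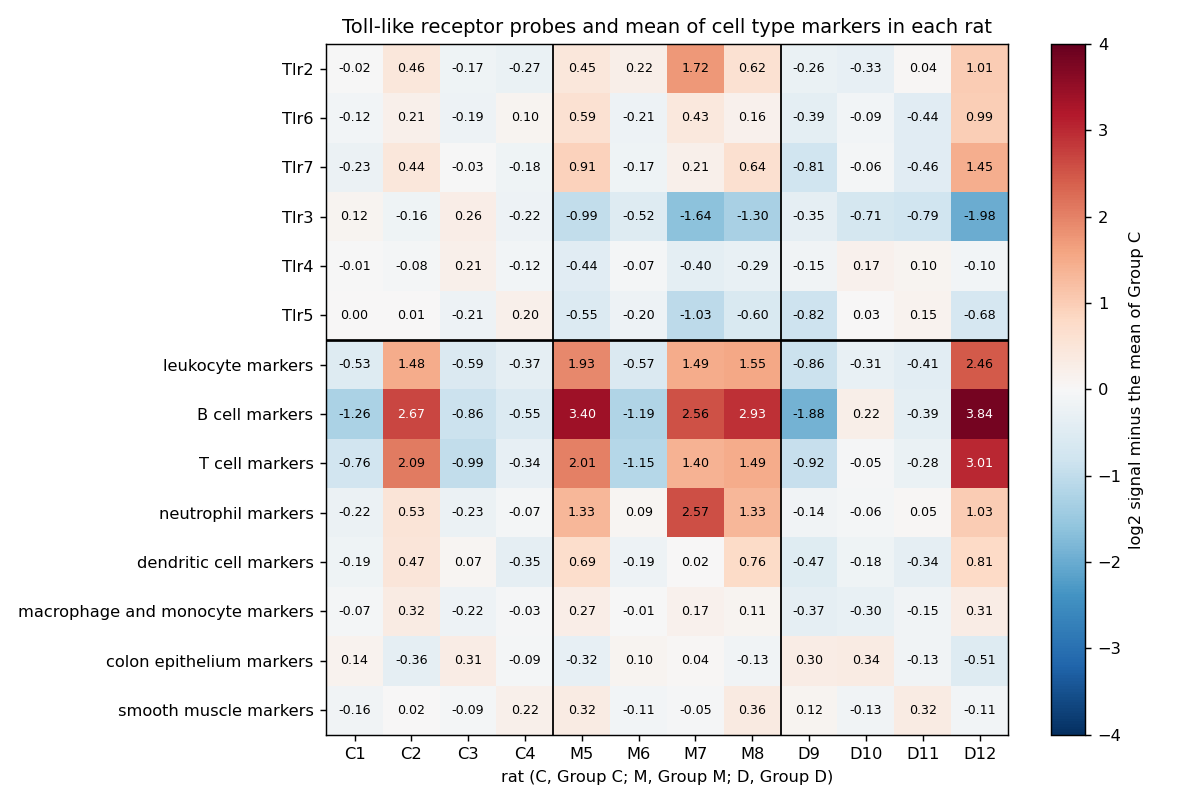
Log2 signal minus the mean of Group C (colour and printed value) of 6 Toll-like receptors and of the mean over 8 lists of cell type markers, with the 12 rats as columns. The leukocyte markers are at 1.48 in C2, 2.46 in D12 and 1.49 to 1.93 in M5, M7 and M8, and at -0.57 in M6.

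Of 79 genes listed for the pathway around the receptors, 73 had a probe, each measured by the brightest, and 61 of these were well above background on all 12 arrays. Tirap, Ticam1, Tab3, Tnfaip3, Rel and Aim2 had no probe of that name, so the adaptor of Tlr3 was not measured. In Group M against Group C, 0 of 73 were called, and 24 had an unadjusted p of 0.05 or less, 17 higher and 7 lower, against 22.7% of all probes. In Group D against Group M, 1 of 73 was called on the 11 arrays, against 0.128% of all probes. Of the 73, 30 had such an unadjusted p, against 21.6% of all probes, 8 of them higher, against 11.3%, and 22 lower, against 10.3%. In Group D against Group C, 0 were called and 4 had such a p, against 5.97% of all probes. Leaving out M6 brought the calls to 19 in Group M against Group C and to 20 in Group D against Group M, while the share of all probes called went to 5.84% and 6.51%, and with D12 in the fit and M6 left out they were 0 and 0.

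Of 10 accessory proteins and co-receptors, 0 were called in any comparison, with a median difference of 0.16 between Groups M and C. Ly96, which holds lipopolysaccharide on Tlr4, differed by -0.01 ± 0.10 (SE) between Groups M and C, and Unc93b1, which carries the nucleic acid receptors to endosomes, by -0.01 ± 0.15 (SE). Cd14, which hands lipopolysaccharide to Tlr4, differed by 0.40 ± 0.16 (SE; adjusted p = 0.171). Of the 16 measured adaptors and kinases, 0 were called, with a median of -0.10. Without adjustment 2 of them were higher and 4 lower in Group M at a p of 0.05 or less, against 22.7% of all probes. The adaptor Myd88 differed by 0.11 ± 0.11 (SE; adjusted p = 0.596). These 4 genes were named after their values were seen, for their roles beside the receptors. The largest positive differences of Group M from Group C among the accessory proteins were 0.86 for Ly86, the partner of the receptor homologue Cd180, and 0.73 for Hsp90b1, the chaperone that folds the receptors (adjusted p = 0.323 and 0.285). The most negative were -0.57 for Lbp, which binds lipopolysaccharide in serum, and -0.06 for Cd36, a scavenger receptor (adjusted p = 0.471 and 0.875). Among adaptors and kinases they were 0.84 for Pik3ap1, an adaptor to phosphoinositide 3-kinase, and 0.59 for Traf3, which leads to interferons (adjusted p = 0.290 and 0.196). On the other side were -0.71 for Traf6, the ubiquitin ligase downstream of Myd88, and -0.41 for the kinase Ikbke (adjusted p = 0.204 and 0.211).

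Of the 7 measured transcription factors, 0 were called. Nfkb1, a subunit of NF-kB, had log2 signals of -0.85 to -0.43 in Group C, of 0.15, -0.37, 0.61 and 0.31 in M5 to M8, of -0.72 to -0.65 in D9 to D11 and of 0.87 in D12. Every rat of Group M lay above every rat of Group C and above D9 to D11, with a difference of 0.84 ± 0.19 (SE; adjusted p = 0.0908) from Group C. Group D differed from Group M by -0.87 ± 0.20 (SE; adjusted p = 0.0848) on the 11 arrays and by -0.48 (adjusted p = 0.590) on all 12. The interferon regulatory factors Irf5 and Irf3 differed by 0.93 and -0.20 between Groups M and C (adjusted p = 0.246 and 0.262). Of the 10 measured negative regulators, 0 were called. The largest positive differences in that list between Groups M and C were 1.88 for Il1rl1, the interleukin 33 receptor, and 1.19 for the transcription factor Atf3. Their adjusted p by limma was 0.134 and 0.355. The most negative were -0.57 for Sigirr, a receptor that dampens Toll-like signals, and -0.41 for the ubiquitin ligase Rnf216 (adjusted p = 0.146 and 0.163). Of 10 other pattern recognition receptors and their adaptors, 0 were called. Tmem173, the sensor of cyclic dinucleotides, differed by 0.66 and Nod2, the sensor of muramyl dipeptide, by 0.27 between Groups M and C (adjusted p = 0.399 and 0.283). Mavs, the adaptor of the cytosolic RNA sensors, differed by -0.35 and Ddx58, such a sensor, by -0.15 (adjusted p = 0.161 and 0.716). For Nod2 every rat of Group M lay above every rat of Group C, with an unadjusted p of 0.083 by limma. Of the 73 pathway genes, 5 lay higher in Group M without overlap, Nfkb1 among them, and 0 lower, where 5.04% of all probes lay lower. In Group D against Group M on the 11 arrays 16 of the 73 lay lower and 3 higher without overlap, where 7.38% of all probes lay lower.

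The 20 genes that Toll-like receptors are known to induce had a median difference of 1.11 between Groups M and C and of -1.35 between Groups D and M on the 11 arrays, where the medians over all probes were -0.01 and 0.01. With D12 in the fit the latter was -0.72. All 20 enter these medians, although 14 were well above background on all 12 arrays and Ifnb1 and Cd80 were so on 0. In the same comparisons on the 11 arrays the markers had medians of 1.20 and -1.82 for leukocytes, 1.74 and -1.75 for neutrophils, 1.99 and -2.81 for B cells and 0.16 and -0.49 for macrophages. In Group M against Group C, 0 of 5 leukocyte and 0 of 8 B cell markers had an unadjusted p of 0.05 or less. Of the neutrophil markers 4 of 8 had one and of the macrophage markers 3 of 12, all higher in Group M, against 22.7% of all probes. The part of immune cells in the differences of the induced genes was not tested. None was called in Group M against Group C by limma, and 6 passed the methods' criterion, all higher (Il6, Il10, Cxcl1, Ccl2, Ptgs2 and Icam1), against 2.31% of all probes. With all 12 arrays in the fit 2 passed it, against 1.56%. Of these 6, Il6, Il10 and Ptgs2 were not well above background on every array. The study itself reported Il6, Il10, Cxcl1, Ccl2 and Ptgs2 as higher in Group M by this criterion. The 20 genes were listed with earlier results of these data known, so their count and medians are a description and not a test. Ccl2, the chemokine that draws monocytes, had log2 signals of -0.91, 1.40, -0.55 and -1.08 in C1 to C4, of 2.78, 1.11, 4.71 and 2.93 in M5 to M8 and of -0.87, -0.90, -1.57 and 2.73 in D9 to D12. C2 lay above M6, and D12 lay in the range of Group M. The difference was 3.17 ± 0.73 (SE; adjusted p = 0.0955) between Groups M and C and -4.00 ± 0.79 (SE; adjusted p = 0.0729) between Groups D and M on the 11 arrays, and -3.04 (adjusted p = 0.278) on all 12. Cxcl2, a chemokine for neutrophils, had a difference of 2.90 ± 0.96 (SE; adjusted p = 0.132) between Groups M and C, and Cxcl10, induced by interferons, of -0.38 ± 0.34 (SE; adjusted p = 0.546).

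Ccl5, a chemokine for T cells, was the gene called in Group D against Group M. It had log2 signals of -1.43 to -0.97 in Group C, of -1.84 to -0.96 in Group M, of 0.27, -0.35 and -0.03 in D9 to D11 and of -1.30 in D12. D9 to D11 lay above every other rat, and D12 lay within Groups C and M. Group D was higher than Group M by 1.49 ± 0.23 (SE; adjusted p = 0.0489) on the 11 arrays, and the difference was 1.18 (adjusted p = 0.205) on all 12. Ccl5 was not called without any 1 of C1, C3, C4, M5, M7, M8, D9, D10 and D11, and all arrays of Group D lay on a slide of their own.

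**Figure D4:**
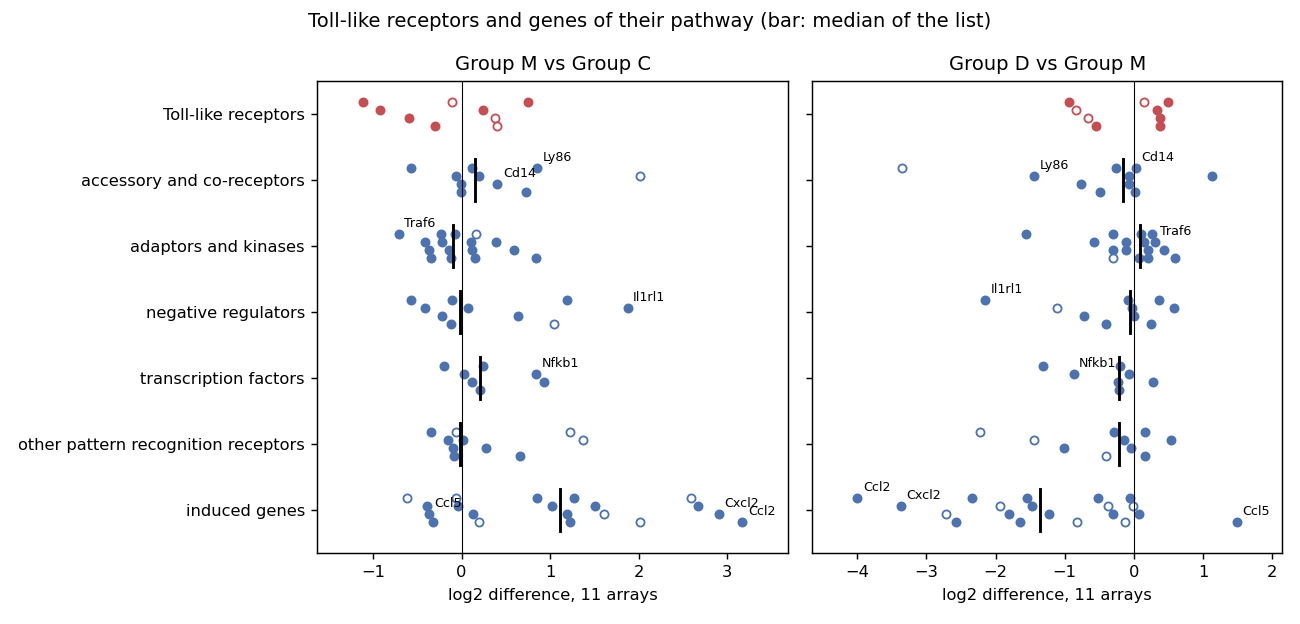
Log2 differences on the 11 arrays (horizontal axes) of 9 Toll-like receptor probes and of 73 pathway genes in 6 lists, for Group M against Group C and Group D against Group M; black bars are medians of the pathway lists and open symbols are probes not well above background on all 12 arrays. The induced genes have medians of 1.11 and -1.35, with Ccl2 at 3.17 and -4.00, while the medians of the adaptors and kinases are -0.10 and 0.09.

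Among 13955 probes of named genes outside the family that were well above background on all 12 arrays, those whose signal followed a receptor most closely over the 12 rats were named by Pearson's r, as a description in which the rats of 3 groups and 2 slides are pooled. For Tlr2 they were Il1b, the cytokine interleukin 1 beta (r = 0.968, Spearman's rho = 0.895), and Aimp1 (r = 0.967). For Tlr6 they were Rinl (r = 0.957) and Gpr183, a receptor that positions B cells (r = 0.954, rho = 0.951). For Tlr3 they were Mapk9, a stress-activated kinase (r = 0.960, rho = 0.937), and Mrpl16, a protein of the mitochondrial ribosome (r = 0.951). For Tlr4 they were Ighmbp2 (r = 0.958) and Msl2 (r = 0.955), and for Tlr5 Znf606 (r = 0.970) and Rnasen, the microRNA-processing nuclease Drosha (r = 0.967).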

How the data were processed

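Colonic RNA of 12 rats was hybridised to 1-colour Agilent rat arrays. Per the file headers, the intensity of each spot was made by the authors with Agilent Feature Extraction 10.5.1.1, which subtracts the background, and was deposited without normalization between arrays. The authors' deposited matrix of log2 values served as an alternative. Control spots and spots marked as outliers (277 to 521 per array) were left out, spots of a probe were averaged, and a probe counted as well above background where at least 50% of its kept spots were so marked. The 3 groups were fitted in one model with limma 3.58.1 (lmFit, eBayes) in R 4.3.3, on 11 arrays, with Benjamini-Hochberg adjustment over 30367 probes. The procedure was tested on simulated data. Signal over background stands in place of depth, and 3 or 4 arrays per group limit the precision. The alternatives were other arrays, background corrections, normalizations, filters, weights, tests and a replicate block. Each gene was named by the rule of every Toll-like receptor probe, every pathway gene called, and in each list the 2 largest rises and falls in Group M against Group C among probes well above background on every array, and others are said to be named later. Members, lists and tests were chosen with earlier results of these data known. The labels do not say whether the replicate numbers pair the rats, and the main fit did not use them as pairs.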

Additional observations from a re-analysis of the deposited data

Results flagged for a closer look

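In Group M, the signal of Tlr8 in rat M8 (-6.89) lay far below those of M5, M6 and M7 (-6.20 to -6.06), with a gap of 0.839 of the range of the group, above the critical value of Dixon's test at 95% for 4 samples. Such a gap was looked for in 30 sets of 4 rats, and chance gives it in about 1 in 20. Rat D12, which the 11 arrays leave out, lay above every rat of Group C for Tlr2 (0.20), Tlr6 (0.35), Tlr7 (-4.49) and Tlr10 (-5.86), where D9 to D11 had -1.14 to -0.76, -1.07 to -0.73, -6.75 to -6.00 and -6.91 to -6.05. For Tlr10, D10 (-6.44) and D11 (-6.05) also lay above every rat of Group C, of which C2 was the highest (-6.80).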

How the results depend on the processing

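The number of Toll-like receptor probes called in Group M against Group C was 0, and it was 1 with the normexp correction, 2 with array quality weights, 1 with the ANOVA and Tukey criterion, 5 at an unadjusted p of at most 0.05 and 0 to 2 with each rat left out. In Group D against Group M it was 0, and 1 with the weights, 5 at the unadjusted p and 0 to 2 with each rat left out. In Group D against Group C it was 0, and 3 at the unadjusted p. For the pathway genes, the count of 0 in Group M against Group C became 21 with the weights, 6 with the ANOVA and Tukey criterion, 24 at the unadjusted p and 0 to 19 with each rat left out. The count of 1 in Group D against Group M became 0 with all 12 arrays (also without M6), the shift to the median, the replicate block and the 2 compared groups alone, 2 with the normexp correction, 2 with probes well above background alone, 20 with the weights, 7 with the ANOVA and Tukey criterion, 30 at the unadjusted p and 0 to 20 with each rat left out. In Group D against Group C the count of 0 became 1 with the ANOVA and Tukey criterion and 4 at the unadjusted p. The highest counts without 1 rat were those without M6, an alternative that was also run with all 12 arrays after the data had been seen. A sign changed for differences that were not called. With 1 rat left out, the difference of Tlr8 between Groups M and C ranged from -0.20 to 0.092 (without M8), that of Tlr10 between Groups D and M from -0.078 (without M6; below 0 also without D11) to 0.37, and those of Tlr4 and Tlr5 between Groups D and C from -0.020 (without D10) to 0.14 and from -0.39 to 0.093 (without D9). On all 12 arrays Tlr2, Tlr6 and Tlr7 differed by 0.11, 0.015 and 0.030 between Groups D and C. The cause of these changes was not tested. Replicate numbers of the labels are shared by the groups. Of 12 pairs of the same number 3 deviated together with a correlation over 0.1 (range -0.72 to 0.58). Of 36 pairs of different numbers 17 did (range -0.79 to 0.77). With the replicate numbers as a block 0 Toll-like receptor probes were called in each comparison. The adjusted p of Tlr3 in Group M against Group C was then 0.245. The normexp correction shrank the differences of the dim probes of Tlr5, Tlr7, Tlr8 and Tlr10 in all 3 comparisons, apart from that of Tlr8 between Groups M and C, which went from -0.10 to -0.16. Calls over the whole array moved too: the share of all probes called in Group M against Group C and in Group D against Group M was 0.165% and 0.128%, and it became 0.247% and 0.300% with the normexp correction, 2.31% and 2.66% with the ANOVA and Tukey criterion, 22.7% and 21.6% at the unadjusted p and 5.84% and 6.51% without M6. With the weights 2125 and 2107 of the 30367 probes were called.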
